A study of Homo sapiens with 27 samples.

Results

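Integrin subunits are described here through 10 genes: the alpha subunits *ITGA9*, *ITGA4*, *ITGA3*, *ITGA6*, *ITGA7*, *ITGA10* and *ITGAV*, and the beta subunits *ITGB1*, *ITGB3* and *ITGB5*. They were chosen by gene symbol, and each symbol stands once among the 61533 genes of the count table, which holds 26 integrin genes in all. The RNA came from 92.1, an established uveal melanoma cell line with mutant *GNAQ*. Cells were kept in 100 nM of VS-4718, an inhibitor of focal adhesion kinase (FAK), here called FAKi, or in DMSO as the control. There were 27 mRNA libraries, 3 for each of 9 groups: DMSO alone (day 0), then a DMSO and a FAKi group sampled after 3, 7, 14 and 21 days. All groups share the same line and its *GNAQ* mutation, and a single line limits the study as a model. The study asked how this tumor cell responds to prolonged inhibition of FAK.

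Integrins are receptors that hold cells to the extracellular matrix. Each receptor joins an alpha subunit, which largely sets the ligand, to a beta subunit, whose short tail recruits talin and kindlin inside the cell. Clustered integrins recruit and activate FAK at focal adhesions, so FAK acts directly downstream of the genes described here. *ITGB1* is the common partner of most alpha subunits. *ITGA3*, *ITGA6* and *ITGA7* form laminin receptors with it, *ITGA10* a collagen receptor, and *ITGA4* and *ITGA9* receptors for VCAM1, osteopontin and, for *ITGA9*, tenascin-C. *ITGAV* pairs with *ITGB1*, *ITGB3* or *ITGB5* to bind proteins that carry the RGD motif, such as vitronectin and fibronectin.

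In bulk RNA, fewer cells with a transcript and less of it per cell cannot be told apart. Library depth ran from 12161994 to 43651551 counts, with a median of 24759579. Mitochondrial genes took 5.49% to 26.97% of the counts. As a measure of how evenly long and short transcripts were recovered, the median log2 deviation of transcripts over 5000 bases was compared with that of transcripts under 1500 bases. DMSO day 21 replicates 1 and 2 stood apart, with long transcripts 1.27 and 1.26 lower and mitochondrial shares of 5.49%, whereas DMSO day 21 replicate 3 had -0.38 and 9.75%. DMSO day 3 replicate 3 was at -0.64, while replicate 1 of that group was at 0.32. FAKi at day 21 ranged from -0.66 to -0.25. FAKi day 7 replicate 1 was closer to FAKi day 14 replicate 1 than replicates of any group were to each other, at a root mean square difference of 0.215 in log2 CPM against at least 0.228 within groups. Member results that changed when one of these libraries was left out are given with and without it. All 12 melanocyte lineage markers were detected at a mean of at least 1 CPM (read counts scaled to the library total), as were 2 of 8 leukocyte markers (*CD68* and *LCP1*), 0 of 6 endothelial, 2 of 6 fibroblast (*LUM* and *COL1A1*) and 1 of 6 epithelial markers (*KRT18*). In FAKi against DMSO at day 21, 2 of 12 melanocyte markers were called higher, and 2 of 4 leukocyte, 1 of 4 fibroblast and 1 of 3 epithelial markers tested were called lower, and their part in the results of that day was not tested. The summed melanocyte markers ranged from 9780 to 15887 CPM over the libraries, and the summed leukocyte markers from 42.4 to 168 CPM. *PTK2*, which encodes FAK, was at 139.9 ± 18.5 CPM (SD, n = 27 libraries).

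Levels between genes were compared per length, as CPM per kb of the counted transcript, with CPM scaled by TMM over all 27 libraries. *ITGB1* was the highest of all 26 integrins at a mean of 87.4 CPM per kb over the 9 groups, above *ITGB5*, the next member, in 27 of 27 libraries. The non-member *ITGA5*, the fibronectin receptor alpha subunit, came next at 14.8 CPM per kb. *ITGB5* at 5.96, *ITGAV* at 5.42 and *ITGA3* at 5.06 CPM per kb followed, and their order was not stable between libraries: *ITGB5* exceeded *ITGAV* in 14 of 27 libraries and *ITGAV* exceeded *ITGA3* in 12 of 27. *ITGA6* at 2.75 and *ITGA9* at 2.32 CPM per kb also could not be ranked, with *ITGA6* the higher in 16 of 27 libraries. *ITGA7* stood lower at 0.774 CPM per kb. *ITGB3* at 0.0586 and *ITGA10* at 0.0274 CPM per kb were near the detection limit, and *ITGA4* had 3 counts in all 27 libraries together.

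*ITGA9* was the member called in FAKi against DMSO, and it was higher in FAKi. It lies on the plus strand of chromosome 3 of hg38 from 37452141 to 37823507 (ENSG00000144668.12). At day 0 the DMSO libraries held 12.6, 10.6 and 10.8 CPM. At day 3 they held 16.0, 10.5 and 8.59 CPM, against 29.0, 34.8 and 34.4 CPM in FAKi. At day 7 DMSO held 9.73, 9.25 and 9.06 CPM and FAKi 33.0, 21.2 and 22.0 CPM. The 3 FAKi libraries lay above the 3 DMSO libraries on both days. At day 14 the values were 15.8, 12.8 and 13.6 CPM in DMSO and 32.0, 36.5 and 30.4 CPM in FAKi, and at day 21 they were 7.43, 5.57 and 8.24 CPM in DMSO and 17.3, 18.1 and 20.6 CPM in FAKi. FAKi libraries stood above DMSO libraries without overlap on all 4 days, which held for 97 of 21147 genes tested on every day (0.459%). Moreover, the lowest of the 12 FAKi libraries (17.3 CPM) exceeded the highest of the 15 DMSO libraries (16.0 CPM), day 0 included, as for 5 of 27897 genes in all (0.0179%).

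**Figure D1:**
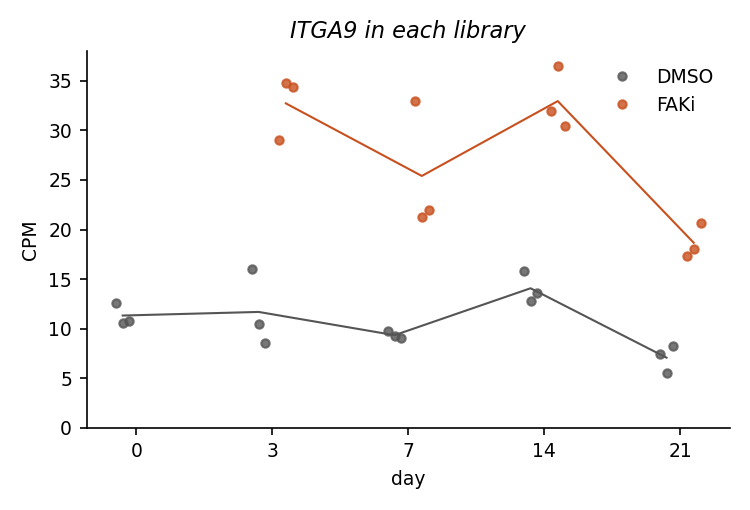
*ITGA9* in CPM (vertical axis) in each library by day (horizontal axis, days spaced evenly); points are libraries, gray for DMSO and rust red for FAKi, and lines join group means. FAKi libraries lie between 17.3 and 36.5 CPM and DMSO libraries between 5.57 and 16.0 CPM.

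Day 3 gave a log2 fold change of 1.50 for *ITGA9* in FAKi against DMSO (standard error 0.23, adjusted p = 0.0945). All adjusted p come from the quasi-likelihood test of edgeR with Benjamini-Hochberg adjustment, here over 6 libraries a day, unless DESeq2 is named. Day 7 gave 1.45 (standard error 0.20, adjusted p = 0.0758, edgeR) and day 14 gave 1.23 (standard error 0.13, adjusted p = 2.69e-06, edgeR). By day 21 it was 1.42 (standard error 0.19, adjusted p = 0.00646, edgeR). The counted *ITGA9* transcript is long, at 7805 bases. At day 21 the length deviation was -1.27, -1.26 and -0.38 in DMSO and from -0.66 to -0.25 in FAKi. The part of this in the *ITGA9* difference was not tested. A gene was called when its adjusted p was at most 0.05 and its absolute log2 fold change over 1, so *ITGA9* was called at days 14 and 21 and not at days 3 and 7. At those earlier days few genes of any kind were called, 0% at day 3, where 23.8% of genes had an unadjusted p under 0.05, and 0.0269% at day 7, against 1.66% at day 14 and 5.28% at day 21. At an unadjusted p under 0.05, 4 members differed at day 3 (*ITGA9*, *ITGB1*, *ITGA3* and *ITGA7*) and 3 at day 7 (*ITGA9*, *ITGA3* and *ITGA7*), where 8.77% of genes did. DESeq2 called *ITGA9* on all 4 days, and of all genes 4.2%, 0.612%, 2.33% and 8.72% in the order of the days. Without FAKi day 7 replicate 1, its log2 fold change at day 7 was 1.21, and edgeR then called it (adjusted p = 0.000106). Leaving out FAKi day 21 replicate 2 or 3 ended the day 21 call, with adjusted p up to 0.0579 from the same edgeR test. In the mean over days, fitted on the 24 libraries that also enter the daily comparisons, *ITGA9* rose by 1.39 on the log2 scale (standard error 0.10, adjusted p = 1.41e-09 from edgeR), with a p that ranked 5 of 27897 genes, of which 1.89% were called. It was called in all 24 fits that left out a single library, with log2 fold changes of 1.33 to 1.47. The daily effects spanned 0.27 on the log2 scale, and a change between days was not detected (adjusted p = 0.877, edgeR's quasi-likelihood F test).

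The antisense gene *ITGA9-AS1* overlaps 9.71% of the exon bases of the counted *ITGA9* transcript, and the strand setting of the counting is not named. *ITGA9-AS1* itself held 888 counts over all libraries, 7.49% of the 11852 of *ITGA9*, and its mean difference between treatments was 0.55 on the log2 scale (standard error 0.17). How many counts of either gene came from the other strand was not tested.

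**Figure D2:**
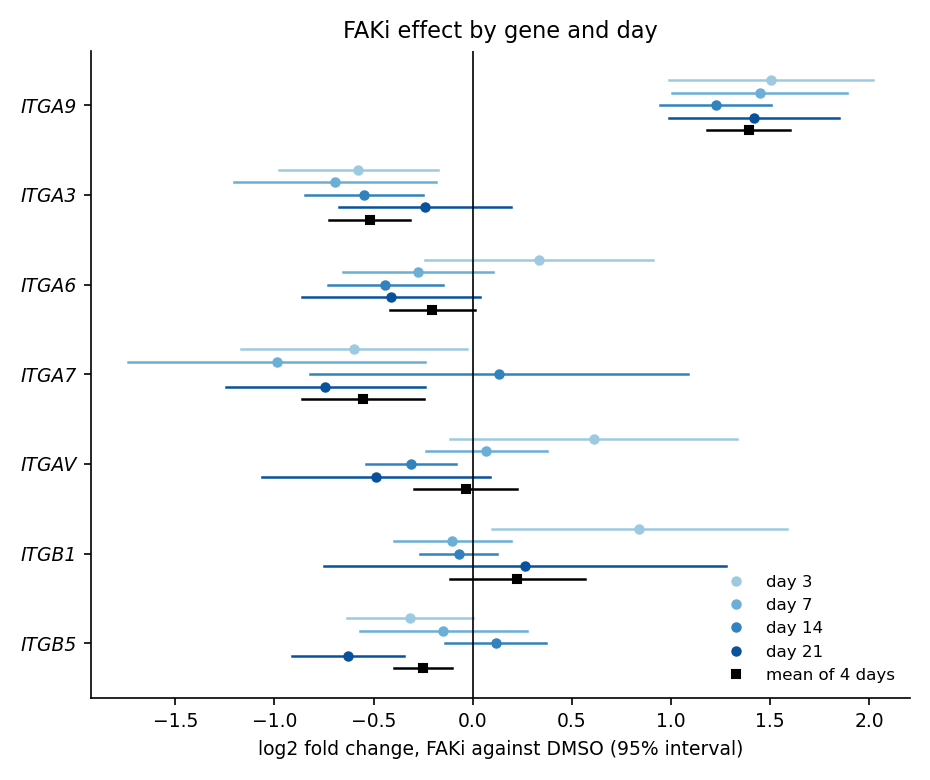
Log2 fold change of FAKi against DMSO (horizontal axis) for 7 members by day and as the mean of the 4 days, with 95% intervals; circles are days from light to dark blue and black squares the mean. *ITGA9* stands at 1.23 to 1.50 on each day, and the mean effects of *ITGA3*, *ITGA7* and *ITGB5* lie below 0 with intervals that do not reach it.

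The share of *ITGA9* among the alpha subunits that can pair with *ITGB1* was followed per length, over 12 alpha genes. It was 3.72% ± 0.41 in DMSO at day 0 (SD, n = 3, as for each share here). It was 3.58% ± 0.62 in DMSO and 10.6% ± 1.15 in FAKi at day 3, and 3.45% ± 0.35 and 10.6% ± 3.42 at day 7. At day 14 it was 6.75% ± 0.79 in DMSO and 15.4% ± 1.19 in FAKi, and at day 21 it was 3.12% ± 0.61 and 9.70% ± 0.34. On each day every FAKi library had a larger share than every DMSO library of that day. *ITGA3* showed the other direction at day 3, from 16.5% ± 1.38 in DMSO to 11.3% ± 1.65 in FAKi, and at day 21 was near equal at 17.7% ± 0.87 and 17.7% ± 1.39. The non-member *ITGA5*, the highest of the 12 at 14.8 CPM per kb, is part of the sum, and its share is not given here. Shares describe transcripts and not receptors at the cell surface.

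**Figure D3:**
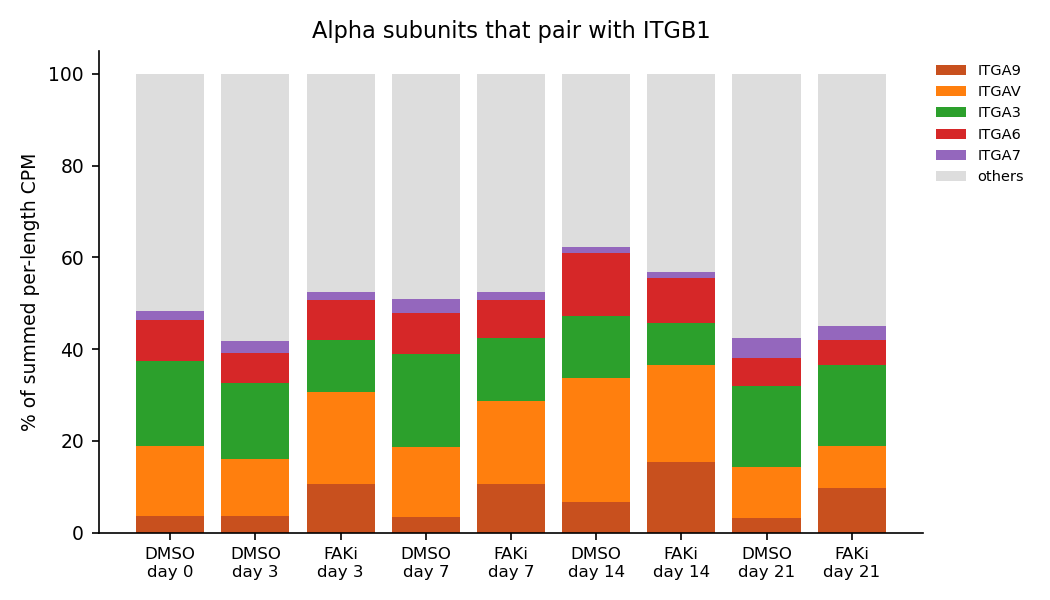
Mean share of alpha subunits (vertical axis, percent of the summed per-length CPM of 12 alpha genes that pair with *ITGB1*) in the 9 groups. *ITGA9* is at the base of each bar in rust red, with *ITGAV*, *ITGA3*, *ITGA6* and *ITGA7* above it. Light gray at the top is the rest of the 12 genes, among them the non-member *ITGA5*, the highest of the 12 at 14.8 CPM per kb. The *ITGA9* part is 3.12% to 6.75% in DMSO and 9.70% to 15.4% in FAKi.

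*ITGA4*, the closest relative of *ITGA9* by ligands, was at the limit of detection. Its 3 counts over 27 libraries left it out of every test, as low counts did *ITGA10* at day 7, and 3 counts correspond to at most 0.243 CPM in a single library. Osteopontin (*SPP1*) was listed with the ligands of RGD receptors. Of 8 other ligand genes listed for *ITGA4* and *ITGA9*, 7 were tested in the mean effect and 0 were called. Of these 7, *CCN3* and *ADAM12* had an adjusted p of at most 0.05, higher in FAKi by 0.80 and 0.37 on the log2 scale (adjusted p = 5.89e-05 and 0.0247, edgeR). Of all genes, 6.96% were higher at that adjusted p. The median log2 fold change of the 7 ligand genes tested was -0.10, against 0.01 over all genes.

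Of the laminin receptor subunits, *ITGA3* and *ITGA7* were lower in FAKi. *ITGA3* (chromosome 17, 50056068 to 50090480, plus strand) was at 44.2, 31.3 and 35.2 CPM in DMSO and 26.7, 20.3 and 25.9 CPM in FAKi at day 3. At day 7 the values were 38.3, 38.6 and 38.1 CPM against 15.4, 31.4 and 23.8 CPM, and at day 14 they were 21.1, 16.9 and 20.7 CPM against 13.3, 13.7 and 13.1 CPM. FAKi lay below DMSO without overlap on these 3 days, where 16.6%, 9.11% and 14% of genes did so. At day 21 the groups overlapped, with 22.8, 26.3 and 35.9 CPM in DMSO and 22.9, 25.0 and 23.0 CPM in FAKi. The mean effect was -0.52 (standard error 0.10, adjusted p = 0.00104, edgeR), under the fold threshold (15.7% of genes had an adjusted p of at most 0.05), and the adjusted p stayed under 0.05 in all 24 fits that left out a library. At day 14 alone its log2 fold change was -0.55 (adjusted p = 0.0142, edgeR), with 12.4% of genes past that adjusted p. Without FAKi day 7 replicate 1, which held the lowest *ITGA3* value of its group, the log2 fold change at day 7 went from -0.70 to -0.46 and the mean effect to -0.46 (adjusted p = 0.0858 and 0.000821, edgeR).

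*ITGA7* (chromosome 12, 55684568 to 55707904, minus strand) was read at low depth, with 2119 counts over all libraries. It was at 4.49, 4.35 and 4.66 CPM in DMSO and 2.58, 2.30 and 3.88 CPM in FAKi at day 3, and at 4.63, 4.90 and 3.92 CPM against 1.39, 3.49 and 1.76 CPM at day 7. At day 21 DMSO held 5.30, 5.06 and 5.51 CPM and FAKi 3.34, 2.38 and 3.53 CPM. These groups did not overlap on the 3 days, where 16.6%, 9.11% and 17.6% of genes were lower in FAKi without overlap, but at day 14 both were low and overlapped, with 1.51, 0.913 and 1.56 CPM in DMSO and 1.62, 1.63 and 1.13 CPM in FAKi. The mean effect was -0.55 (standard error 0.15, adjusted p = 0.0136, edgeR), which was -0.49 without FAKi day 7 replicate 1 (adjusted p = 0.0221, edgeR), and it lost the adjusted p threshold without day 21 (adjusted p = 0.120, edgeR) or without day 7 (adjusted p = 0.0715, edgeR). At day 21 the adjusted p was 0.0609, and 0.0222 in the edgeR fit with replicate blocks.

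*ITGA6* (chromosome 2, 172427586 to 172506459, plus strand) had no detected difference in the mean effect, at -0.20 (95% interval -0.42 to 0.01). It was at 22.0, 18.4 and 23.3 CPM in DMSO and 14.9, 16.6 and 15.5 CPM in FAKi at day 14, a log2 fold change of -0.44 (adjusted p = 0.0416, edgeR). At that day 12.4% of genes had an adjusted p of at most 0.05. With a library left out, *ITGA6* kept such an adjusted p in 1 of 6 fits, with values up to 0.168 (edgeR). At day 21 its FAKi libraries, at 7.48, 7.03 and 8.33 CPM, were again below all DMSO libraries, at 8.90, 9.37 and 12.6 CPM, and the adjusted p was 0.184 from edgeR. Of all genes, 14% at day 14 and 17.6% at day 21 were lower in FAKi without overlap. Correction for transcript length and GC content gave a mean effect of -0.29 (adjusted p = 0.00905, edgeR). The collagen receptor subunit *ITGA10* had 97 counts over all libraries and was at 0 in 6 of them, and at 0.484 CPM or less in the others. Its mean effect of 0.65 had a 95% interval of -0.71 to 2.01, so that no difference could be detected at this depth.

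Among the RGD receptor subunits, no mean difference was detected for *ITGAV* and *ITGB3*, and *ITGB5* was lower in FAKi. *ITGAV* (chromosome 2, 186590056 to 186680901, plus strand) had a mean effect of -0.04 (95% interval -0.30 to 0.22). Its DMSO libraries at day 3 spread from 18.0 to 57.1 CPM, with replicate 3 the lowest, whereas FAKi held 54.7, 57.6 and 55.0 CPM. Without DMSO day 3 replicate 1 the day 3 log2 fold change went from 0.61 (adjusted p = 0.276, edgeR) to 1.06 (adjusted p = 0.00372, edgeR), and without replicate 3 to 0.28. At day 14 *ITGAV* was at 44.8, 52.9 and 53.6 CPM in DMSO and 40.8, 40.6 and 40.6 CPM in FAKi, a log2 fold change of -0.31 (adjusted p = 0.0676, edgeR). At day 21 it was at 19.1, 21.8 and 27.3 CPM in DMSO and 11.8, 14.2 and 21.7 CPM in FAKi, with adjusted p = 0.212, and 0.0144 in the edgeR fit with replicate blocks. *ITGB3* never exceeded 0.863 CPM, and its mean effect of -0.06 had a 95% interval of -0.84 to 0.72. Another gene on the same strand, ENSG00000259753, shares 38.1% of its exon bases, so its counts are uncertain.

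*ITGB5* (chromosome 3, 124761948 to 124887365, minus strand) fell by 0.25 on the log2 scale in the mean effect (standard error 0.07, adjusted p = 0.0184, edgeR). Its DMSO libraries at day 21 held 32.8, 30.9 and 33.0 CPM and the FAKi libraries 21.4, 19.6 and 20.5 CPM. The groups were well apart, with a log2 fold change of -0.63 (adjusted p = 0.0206, edgeR), under the fold threshold, with 11.6% of genes past that adjusted p and 17.6% of genes lower without overlap. With a library left out, the day 21 adjusted p was at most 0.05 in 1 of 6 fits and rose to 0.116 (edgeR). Without day 21 the mean effect was -0.12 (adjusted p = 0.460, edgeR). At day 3 FAKi was below DMSO without overlap, at 27.1, 25.0 and 26.4 against 31.0, 32.8 and 35.6 CPM, as for 16.6% of genes. At day 14 FAKi was above DMSO without overlap, at 25.2, 24.8 and 25.4 against 22.5, 22.4 and 24.8 CPM, as for 15% of genes. The day 14 separation was narrow, with 24.83 CPM in the lowest FAKi library and 24.76 CPM in the highest DMSO library. Under RLE scaling the groups overlapped, at 24.75 CPM in FAKi replicate 2 and 25.21 CPM in DMSO replicate 3. With a library left out, the day 14 adjusted p was between 0.498 and 0.767 (edgeR). The change of the effect over the 4 days had an adjusted p of 0.0623 from edgeR's quasi-likelihood F test and 0.00596 from DESeq2.

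*ITGB1* (chromosome 10, 32900333 to 32958253, minus strand) is the beta subunit shared by most of these receptors. No difference was detected in its mean effect, at 0.23 (95% interval -0.11 to 0.57). At day 3 FAKi held 506, 509 and 534 CPM, above DMSO at 441, 302 and 138 CPM, as for 14.4% of genes, with a log2 fold change of 0.84 (adjusted p = 0.171, edgeR). DMSO replicate 3 of that day, the lowest, is the library with a length deviation of -0.64, and without it the log2 fold change was 0.50 (adjusted p = 0.181, edgeR). Without DMSO day 3 replicate 1 it was 1.25 and called (adjusted p = 0.00204, edgeR), and without replicate 2 it was 0.87 (adjusted p = 0.326, edgeR). At days 7 and 14 the groups overlapped between 304 and 414 CPM. At day 21 DMSO held 67.7, 55.8 and 197 CPM and FAKi 107, 114 and 159 CPM. The highest DMSO value, replicate 3, had a length deviation of -0.38 against -1.27 and -1.26 in the other 2, and leaving it out moved the day 21 log2 fold change from 0.26 to 1.08 (adjusted p = 4.51e-06, edgeR) and the mean effect to 0.43 (adjusted p = 0.00929, edgeR). Leaving out replicate 1 or 2 instead gave 0.01 and -0.05 at day 21 (adjusted p = 0.992 and 0.957, edgeR), and 0.16 and 0.15 in the mean effect (adjusted p = 0.559 and 0.567, edgeR). The processed pseudogene *ITGB1P1* held 13.9% as many counts as *ITGB1*, so that reads of this copy and of *ITGB1* cannot be cleanly separated.

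**Figure D4:**
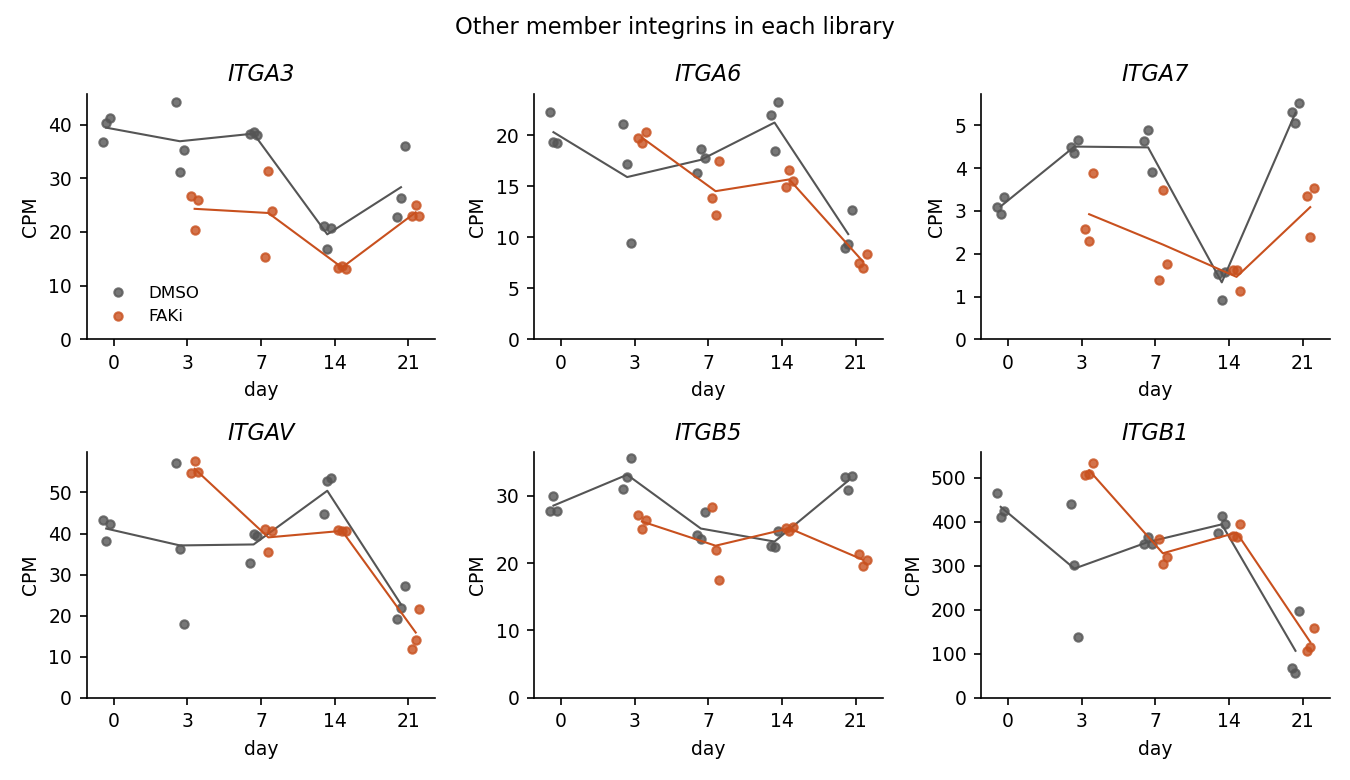
CPM of 6 members (vertical axes, each with its own scale from 0) in each library by day (horizontal axes, days spaced evenly); gray points are DMSO libraries, rust red points FAKi libraries, and lines join group means. *ITGB1* falls to 55.8 to 197 CPM at day 21 in both treatments, and *ITGA7* is lowest at day 14 in both.

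Over time, *ITGB1*, *ITGAV* and *ITGA6* moved together and *ITGA3* and *ITGA7* differently. The DMSO comparisons share the same 3 day 0 libraries. In DMSO, 0 members were called at days 3 and 7 against day 0, where 0% and 0.0802% of genes were (10.1% and 3.69% at an unadjusted p under 0.05). By edgeR 1 member, *ITGA7*, had an unadjusted p under 0.05 on both days, and DESeq2 called 0 members. At day 14, 2 members were called against day 0: *ITGA3* fell by 1.01 and *ITGA7* by 1.23 (adjusted p = 0.000767 and 0.00200, edgeR), and 6.14% of genes were called. Neither was called after the length and GC correction, at -0.70 and -0.99. In the same comparison 3 of 12 melanocyte markers were called higher, and 1 of 4 leukocyte and 1 of 3 epithelial markers lower, of those tested, and their part was not tested. At day 21, where 19.3% of genes were called, *ITGB1* fell by 2.01 (standard error 0.39, adjusted p = 0.00118, edgeR) and *ITGB3* by 2.41, from 0.629 ± 0.245 to 0.103 ± 0.0906 CPM (SD, n = 3). The *ITGB3* call had an adjusted p of 0.0152 from edgeR and rested on 29 counts at day 0 and 9 at day 21, and it was lost without DMSO day 0 replicate 1 (adjusted p = 0.0608, edgeR) or DMSO day 21 replicate 2 (a log2 fold change of -1.96, with an adjusted p just over the threshold). Without DMSO day 21 replicate 1 or 2 *ITGB1* fell by 1.77 and 1.71 and stayed called, and without replicate 3 it fell by 2.88, with 2, 1 and 4 members called in turn. With the adjusted p alone 7 members differed at day 21, where 38.4% of genes did, 6 of them lower and *ITGA7* higher by 0.77. Within FAKi, *ITGB1*, *ITGAV* and *ITGA6* were called across days 3 to 21, with group means spanning 2.02, 1.80 and 1.37 on the log2 scale (adjusted p = 2.14e-07, 4.77e-06 and 2.68e-05, edgeR's quasi-likelihood F test), and 24.2% of genes were called. RLE scaling, upper quartile scaling and DESeq2 also called *ITGA7* there, and with the adjusted p alone, which 45.1% of genes passed, *ITGA9* and *ITGA3* differed too. *ITGB1* went from 517 ± 15.5 CPM at day 3 to 127 ± 28.0 CPM at day 21 (SD, n = 3), *ITGAV* from 55.8 ± 1.57 to 15.9 ± 5.19 CPM, and *ITGA6* from 19.8 ± 0.54 to 7.62 ± 0.66 CPM.

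The libraries of low *ITGB1* are those with few long transcripts. In the 4 libraries with a deviation below -0.5 apart from DMSO day 3 replicate 3, *ITGB1* was between 55.8 and 114 CPM, and in that library it was 138 CPM. Among libraries with a deviation above 0, *ITGB1* was at least 304 CPM. Correction for length and GC content left *ITGB1* lower by 1.76 on the log2 scale in DMSO at day 21 (adjusted p = 0.00137, edgeR), and took *ITGAV* from -0.85 to -0.23 and *ITGA6* from -0.97 to -0.47 in the same comparison. Of the FAKi time course, *ITGAV* and *ITGB1* stayed called under this correction and *ITGA6* did not. What part of these time differences goes with RNA recovery and what part with the cells was not tested.

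**Figure D5:**
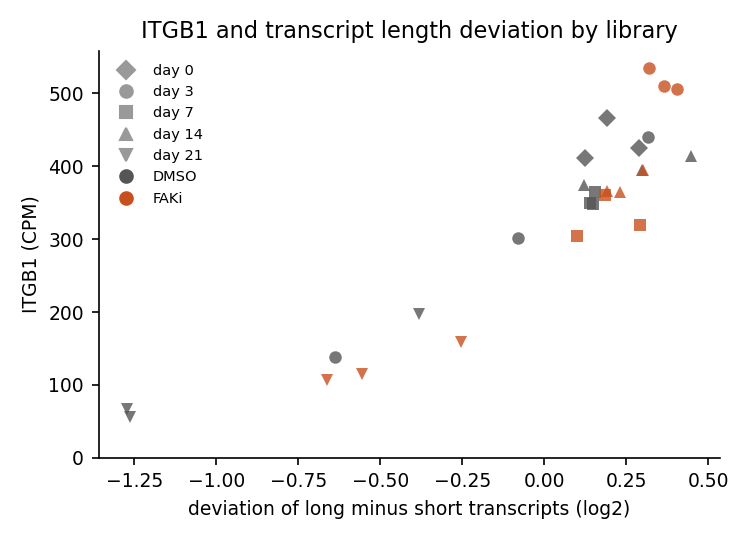
*ITGB1* in CPM (vertical axis) against the median log2 deviation of long minus short transcripts (horizontal axis) in 27 libraries; color gives the treatment and shape the day. The day 21 libraries lie at the left with 55.8 to 197 CPM, and DMSO day 3 replicate 3 lies among them at 138 CPM.

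Across the 9 group means, log2 CPM of *ITGA6* and *ITGAV* had a Pearson r of 0.956, *ITGAV* and *ITGB1* of 0.910, and *ITGA6* and *ITGB1* of 0.902. *ITGA3* and *ITGA7* had an r of 0.796, and *ITGA9* and *ITGA3* of -0.70. These are descriptions over 9 points that share libraries, depth and the length deviation above. Since *ITGA6*, *ITGAV* and *ITGB1* moved together and are called over the FAKi time course, the sequences upstream of their starts are shown, from RefSeq on hg38 (GRCh38.p14), 5′ to 3′, limited to bases outside the annotated exons on their strand. Capitals mark matches to GGAATG, the core of TEAD factor sites, GGGCGG, the GC box, TGANTCA (AP-1), CATGTG or CACGTG (both E-boxes) or the CArG box of serum response factor, on either strand.
ITGA6, chr2:172427471-172427585, plus strand: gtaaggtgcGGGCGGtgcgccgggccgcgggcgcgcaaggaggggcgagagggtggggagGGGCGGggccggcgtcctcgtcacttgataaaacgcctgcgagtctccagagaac
ITGAV, chr2:186589806-186590009, plus strand: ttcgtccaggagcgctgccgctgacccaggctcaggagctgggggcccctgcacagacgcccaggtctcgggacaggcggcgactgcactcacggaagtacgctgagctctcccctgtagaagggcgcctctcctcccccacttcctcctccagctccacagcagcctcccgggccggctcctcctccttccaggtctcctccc
ITGB1, chr10:32958326-32958480, minus strand: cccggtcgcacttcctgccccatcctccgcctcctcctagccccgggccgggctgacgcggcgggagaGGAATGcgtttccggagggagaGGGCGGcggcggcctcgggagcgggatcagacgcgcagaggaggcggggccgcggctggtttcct
In the 250 bases before the start, *ITGA6* had 3 GGGCGG matches, *ITGB1* had 3 and 1 of GGAATG, and *ITGAV* had 0 of any motif. Over all 35116 such windows, 42.6% held GGGCGG, 11.9% GGAATG, 6.57% TGANTCA, 9.42% CATGTG, 6.34% CACGTG and 1.16% a CArG box. Of the 10 members, 6 had a RefSeq window, and *ITGA9*, *ITGA3*, *ITGA7* and *ITGB3* had none.

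By the same measure over the 9 group means, the genes most like *ITGB1* were *RAP1BL* (r = 0.993) and *EFR3A* (0.992), those most like *ITGA9* were *SMYD4* (0.963) and *DDX39B* (0.949), and those most like *ITGB3* were ENSG00000235522 (0.983) and *C22orf23* (0.977), among 16980 or 16981 genes of at least 1 CPM. Each r is among the highest of all genes compared, over 9 points that share the length deviation above. For *ITGB3* they rest on 230 counts over all libraries.

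Of the 16 other integrin genes, 12 were tested in the mean effect and 0 were called. *ITGA1*, a collagen receptor subunit, was called at day 21 (log2 fold change -1.38, standard error 0.29, adjusted p = 0.0237, edgeR). Its effect, and those of *ITGAE* and *ITGAX*, changed over the 4 days (adjusted p = 0.0180, 0.0197 and 0.0272, edgeR's quasi-likelihood F test, with 7.68% of genes called). By edgeR 0 members were called in that test and 2, *ITGB5* and *ITGAV*, had an unadjusted p under 0.05, as did 27.2% of genes. DESeq2 called *ITGAV*, and 15.5% of genes. The median log2 fold change of the mean effect was -0.06 for the 9 members tested and -0.07 for the other integrins, against 0.01 for all genes.

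Genes that act with integrins were read from lists of ligands and partners. Of 16 ligands of RGD receptors, 13 were tested in the mean effect and 1 was called, the matrix protein *THBS1*, which was at 0 in DMSO at days 0, 14 and 21 and had a group mean of at most 0.276 CPM elsewhere, too low for a fold to be given. *CCN1*, a matricellular integrin ligand, rose at day 14, where DMSO held 5.49 ± 0.77 CPM and FAKi 11.8 ± 2.16 CPM (SD, n = 3; log2 fold change 1.10, adjusted p = 0.000626, edgeR), and *LTBP1*, a latent TGF-beta binding protein, fell by 1.32 (adjusted p = 0.0375, edgeR). *CCN2*, a relative of *CCN1*, fell by 2.46 at day 21 (adjusted p = 0.00750, edgeR), from 2.59 ± 0.61 to 0.471 ± 0.11 CPM. Of 12 laminin chains, 10 were tested in the mean effect, where *LAMB3* fell by 1.04 (adjusted p = 0.00290, edgeR). It fell by 2.37 at day 21 (adjusted p = 0.00955, edgeR), from 2.64 ± 0.14 to 0.514 ± 0.20 CPM. At day 3 *LAMB3* was at 2.56 ± 0.37 CPM in DMSO and 0.951 ± 0.55 CPM in FAKi. At days 7 and 14 its means were closer, at 0.895 and 0.935 CPM in DMSO and 0.712 and 0.862 CPM in FAKi. *LAMA1* and *LAMA3* rose at day 14 by 1.04 and 1.24 on the log2 scale (adjusted p = 2.29e-06 and 0.0382, edgeR). Of 12 collagens bound by integrins, 9 were tested in the mean effect and 0 were called.

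Of 29 activators and adaptors of integrins, such as talins and kindlins, 27 were tested in the mean effect and 0 were called. 4 had an adjusted p of at most 0.05 and a higher level in FAKi and 1 a lower level, against 6.96% and 8.7% of all genes. The higher genes were *TLN2*, *KANK1*, *KANK2* and *PTK2B*, a kinase related to FAK, and the lower was *PARVB*. *TLN2*, a talin, was called at day 21 with a log2 fold change of 1.02 (adjusted p = 0.0203, edgeR), where DMSO held 4.52 ± 0.82 CPM and FAKi 9.08 ± 0.85 CPM. Of 5 inhibitors of integrin activation, 0 were called on any day and 0 in the mean effect, and 1, the actin crosslinker *FLNA*, was called in the change of the effect over days (adjusted p = 0.00809, edgeR's quasi-likelihood F test). At day 14 *FLNA* and *SHARPIN* had an adjusted p of at most 0.05, higher in FAKi by 0.98 and 0.42 on the log2 scale. Of 15 membrane partners, 0 were called in the mean effect, 5 had an adjusted p of at most 0.05 and a lower level (the tetraspanins *CD151*, *CD81* and *TSPAN4*, the syndecan *SDC4* and *SLC3A2*, the heavy chain of amino acid transporters) and *CAV1*, caveolin, rose by 0.52 (adjusted p = 4.12e-05, edgeR), under the fold threshold. In the change of the effect over days, 5 of the 15 partners were called (*CD151*, *CD9*, *CD63*, *CD81* and *SDC1*), where 7.68% of genes were. By the adjusted p, 3 partners were higher in FAKi and 0 lower at day 14, and 1 was higher and 6 lower at day 21. Of all genes, 6.35% were higher and 6.1% lower at day 14, and 5.27% and 6.32% at day 21. In DMSO at day 21 against day 0, 9 of the 15 partners were higher and 0 lower by the adjusted p, where 38.4% of genes differed. DMSO day 21 replicates 1 and 2 had length deviations of -1.27 and -1.26, and the part of this in the partner differences was not tested. *CD151*, for example, had a log2 fold change of 0.48 at day 14 and -0.68 at day 21 (adjusted p = 0.0172 and 0.0379, edgeR). In the other lists, the change of the effect was called for 2 of 27 activators and adaptors (*PTK2B* and *RAP1B*) and for 1 gene each of the ligands of RGD receptors (*CCN2*), the laminin chains (*LAMA1*), the ligands of *ITGA4* and *ITGA9* (*ADAM15*) and the collagens (*COL5A2*).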

How the data were processed

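Deposited values are raw read counts over exons, which the authors did not normalize, with 1 transcript of GENCODE 39 standing for each gene. Per the labels and methods, mRNA libraries (TruSeq Stranded) were trimmed with Trim Galore, aligned to hg38 with STAR 2.5.3a and counted with HOMER, and the strand setting is not given in the sources used here. All 27 columns were matched to samples by label. The label of DMSO day 21 replicate 3 writes the day with an extra digit, and its title gives day 21. Methods name triplicate plating and repeats of the experiment, without saying which the replicate number counts, so p-values may measure technical spread.

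Tests used edgeR 4.0.16 in R 4.3.3 (TMM, genes with under 20 counts removed, Benjamini-Hochberg adjustment), in place of DESeq2, which the study used and which was run here as version 1.42.0. The fits held 6 libraries for a day, 24 for the mean effect and its change, 15 for DMSO over time and 12 for FAKi over time. The members and gene lists were chosen with earlier results of these data known. Named genes are all members, list genes past both thresholds or beside a count of 5 or fewer, and the 2 genes most like each of the 3 members of widest range. The pipeline was tested on simulated data. At 1 CPM the shallowest library had 12 counts. A 95% interval covers replicate and counting error only.

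Replicate numbers were checked by correlating deviations of same-numbered libraries from their group means across genes. At day 21, r was 0.444, 0.128 and 0.659 for replicates 1 to 3, all over a threshold of 0.1. Libraries of different number had r from -0.555 to 0.482 there, so the check does not establish pairing. The main fits of all days, day 21 included, left the numbers unpaired, and a fit with replicate blocks was run beside them. Alternatives were RLE and upper quartile scaling, no filter, at least 10 counts in every library, filterByExpr, DESeq2, a fit of all 27 libraries, calls without a fold threshold, a stricter adjusted p (0.01), the replicate block and each library left out in turn. A loess correction for transcript length and GC content (span 0.5, transcripts of GENCODE 44) and means without day 7 or day 21 were added after seeing the data.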

Additional observations from a re-analysis of the deposited data

Results flagged for a closer look

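*ITGB5* was marked because its FAKi and DMSO libraries did not overlap in opposite directions on different days: its log2 fold change was -0.32 at day 3 and -0.63 at day 21, with every FAKi library below every DMSO library, and 0.12 at day 14, with every FAKi library above. Of all genes, 16.6% at day 3 and 17.6% at day 21 were lower in FAKi without overlap, and 15% at day 14 were higher. The day 14 separation was narrow, with 24.83 CPM in the lowest FAKi library and 24.76 CPM in the highest DMSO library, and it was lost under RLE scaling. With a library left out, the day 14 adjusted p was between 0.498 and 0.767 (edgeR). The difference between days was tested by the change of the effect over the 4 days, which gave an adjusted p of 0.0623 from edgeR's quasi-likelihood F test and 0.00596 from DESeq2.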

How the results depend on the processing

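*ITGA9* was the member called in the mean FAKi effect under every scaling, filter, tool and single library left out (1 of 10 in each). With the adjusted p alone the counts of members rose to 4 in the mean effect, 3 at day 14, 2 at day 21, 7 in DMSO at day 21 and 5 in the FAKi time course. Of all genes, 15.7%, 12.4%, 11.6%, 38.4% and 45.1% passed it in the same order. Leaving out single libraries gave 0 to 3 members at day 3, 0 to 1 at day 7, 1 at day 14, 0 to 2 at day 21, 0 to 2 in the change of the effect, 1 to 2 in DMSO at day 14, 1 to 4 in DMSO at day 21 and 3 to 5 in the FAKi time course. Day 3 and day 7 gave 1 member, *ITGA9*, without the filter, by DESeq2 and in a fit of all 27 libraries, and the change of the effect gave 1, *ITGAV*, without the filter and by DESeq2. DESeq2 called 4.2% of all genes at day 3, 0.612% at day 7 and 15.5% in the change of the effect. Shares of all genes in the other refits are not given here. DMSO at day 14 gave 1 with at least 10 counts in every library or filterByExpr and 0 after the length and GC correction, and DMSO at day 21 gave 1 with at least 10 counts in every library or an adjusted p of at most 0.01. The cause was not tested. The replicate block changed 0 calls of members at any day, and at day 21 the count stayed 1, *ITGA9*. RLE scaling, upper quartile scaling and DESeq2 added *ITGA7* in the FAKi time course (4), and upper quartile scaling added *ITGA6* in DMSO at day 21 (3). Depth limits *ITGA4*, *ITGA10* and *ITGB3*.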
